A study of Homo sapiens with 51 samples.

Results

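Accessible chromatin in KO cells was compared with that in WT cells after 5 days under BMP4, over all 142087 regions of the table counted for the BMP4 samples. The comparison rests on 4 of the 51 libraries of the series, 2 labelled KO and 2 labelled WT. The members were taken by label and day, and the genes near gained and lost regions were then described. ATAC-seq was used, in which a transposase places sequencing adapters in open DNA, so that a region's read count measures how open it is.

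All cells were of H1, an established human embryonic stem cell line. The labels give 3 genotypes, WT, KO and ΔATG, the last written DATG below. The groups used here are WT, KO and DATG under BMP4 at day 5, and WT and KO under BMP4 at days 1 to 4, with 2 libraries each, lettered a and b. The labels give neither the gene edited in KO and DATG nor the number of clones behind each line, so the edit itself was not checked here, and what belongs to 1 clone cannot be told apart from the genotype. Nothing in the labels says that a and b came from separate cultures, and p-values then reflect only how far these libraries differ, a spread that may be technical.

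BMP4 is a secreted signal that acts through receptor kinases and SMAD proteins. In human pluripotent cells it drives the exit from pluripotency towards primitive streak and mesoderm, and, depending on the other signals present, towards amnion-like and trophoblast-like cells. Enhancers far from gene starts open and close in a manner typical of each cell type, while the promoters of widely used genes tend to stay open. KRAB zinc-finger genes, several of which appear below, encode DNA-binding repressors and lie in clusters, many of them on chromosome 19.

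Total counts of the day 5 libraries were 6866744 (WT a), 9156419 (WT b), 7920338 (KO a) and 7677961 (KO b), within the 4019778 to 13850448 of the 30 BMP4 libraries. Each region was 201 bp long. Replicates differed by more than counting noise in both groups, with a chi-square per degree of freedom of 1.23 between the WT and 1.54 between the KO libraries. Levels are given as CPM, counts scaled to library size with TMM factors. Differences are log2 values, KO minus WT, given with their standard error (SE), and a region or gene is called where edgeR's quasi-likelihood F test gave a Benjamini-Hochberg adjusted p under 0.05. Loss and gain mean lower and higher in KO than in WT on the same day, not a change over time. In bulk samples, fewer cells of a type and a less open region in each cell cannot be told apart.

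The difference was wide and ran mostly towards loss. Of 142083 regions tested, 22517 were called, which is 15.8% of them. KO was lower in 14411 (10.1%) and higher in 8106 (5.71%). Past 2-fold, 8766 (6.17%) were lower and 3607 (2.54%) higher, so that 70.8% of the large differences were losses. The split depended on scaling, with 64.0% of calls lower under TMM and 54.6% when libraries were scaled by total counts, which called 12455 lower and 10374 higher. DESeq2 called 10241 regions, all of them also called by edgeR and 70.8% of them lower. Calls numbered 11553 without WT b and 12518 without KO a.

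Named regions are the 10 called ones with the largest difference in each direction, 1 per gene, at or above the median level of all regions and within 50 kb of a protein-coding gene. The 4 largest losses lay near zinc-finger genes. The region named for ZNF680, at chr7:64574523-64574723, lies 11452 bp from the start of that gene and over the start or end of the uncharacterised LOC100128885. Its counts were 46 and 43 in WT and 0 and 1 in KO, a difference of -6.18 ± 0.61 (SE; edgeR adjusted p = 1.43e-13). The 2 regions for which ZNF680 itself was the nearest gene were not called (-0.09 and 0.34). The region beside the start of ZNF585A (chr19:37172717-37172917) held 67 and 92 reads in WT and 3 and 1 in KO, with -5.25 ± 0.40. At ZNF667 (chr19:56478028-56478228, 683 bp before its start and over the start or end of its antisense partner ZNF667-AS1), WT held 76 and 94 reads and KO 5 and 5 (-4.08 ± 0.33). Both KO libraries were near 0 and below both WT libraries at each of these lost regions. ZNF354C, on chromosome 5, had 50 and 63 reads at its start in WT against 3 and 7 in KO (-3.49 ± 0.36). ZNF585A and ZNF585B are neighbouring near-copies, so reads between them could be misplaced, and a region shared by ZNF667 and ZNF667-AS1 belongs to neither alone.

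The sequences just before 5 such starts are shown because regions nearly empty in KO cover them, with that of GPR50, the largest gain within 1 kb of a gene, for contrast. They are RefSeq sequences on GRCh38.p14, 250 bases upstream of the annotated start on the gene's own strand, and capitals mark the bases inside a counted region (for ZNF667 a second region, nearer its start, at -3.93).
ZNF585A, chr19:37172696-37172945 (minus strand): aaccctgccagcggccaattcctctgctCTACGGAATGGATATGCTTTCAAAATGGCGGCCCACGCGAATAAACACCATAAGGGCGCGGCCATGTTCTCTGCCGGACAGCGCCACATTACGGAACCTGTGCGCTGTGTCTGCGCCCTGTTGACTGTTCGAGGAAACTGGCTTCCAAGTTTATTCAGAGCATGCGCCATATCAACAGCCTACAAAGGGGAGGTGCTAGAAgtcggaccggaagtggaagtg
ZNF585B, chr19:37210537-37210786 (minus strand): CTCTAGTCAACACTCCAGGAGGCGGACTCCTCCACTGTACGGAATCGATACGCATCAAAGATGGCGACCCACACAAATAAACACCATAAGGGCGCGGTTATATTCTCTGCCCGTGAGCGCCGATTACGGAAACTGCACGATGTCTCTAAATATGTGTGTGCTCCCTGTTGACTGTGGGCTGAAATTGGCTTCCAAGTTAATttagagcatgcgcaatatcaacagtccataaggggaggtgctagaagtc
ZNF667, chr19:56477346-56477595 (minus strand): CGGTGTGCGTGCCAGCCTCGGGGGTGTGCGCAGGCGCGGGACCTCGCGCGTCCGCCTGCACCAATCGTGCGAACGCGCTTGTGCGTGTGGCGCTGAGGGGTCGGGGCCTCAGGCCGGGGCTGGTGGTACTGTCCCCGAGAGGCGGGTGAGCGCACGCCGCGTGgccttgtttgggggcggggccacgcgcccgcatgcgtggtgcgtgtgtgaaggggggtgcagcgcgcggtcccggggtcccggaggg
ZNF354C, chr5:179060123-179060372 (plus strand): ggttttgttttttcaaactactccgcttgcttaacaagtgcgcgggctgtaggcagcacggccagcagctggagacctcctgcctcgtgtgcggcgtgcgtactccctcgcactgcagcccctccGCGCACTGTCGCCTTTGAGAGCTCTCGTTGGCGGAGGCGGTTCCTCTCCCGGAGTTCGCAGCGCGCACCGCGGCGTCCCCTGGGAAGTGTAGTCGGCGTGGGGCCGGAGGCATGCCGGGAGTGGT
MCTS2, chr20:31547129-31547378 (plus strand): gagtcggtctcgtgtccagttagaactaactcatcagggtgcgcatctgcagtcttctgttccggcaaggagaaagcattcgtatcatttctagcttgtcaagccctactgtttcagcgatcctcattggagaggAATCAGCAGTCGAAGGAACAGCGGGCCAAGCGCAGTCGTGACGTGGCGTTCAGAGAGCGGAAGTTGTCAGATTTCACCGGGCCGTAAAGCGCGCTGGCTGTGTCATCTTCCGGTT
GPR50, chrX:151176334-151176583 (plus strand): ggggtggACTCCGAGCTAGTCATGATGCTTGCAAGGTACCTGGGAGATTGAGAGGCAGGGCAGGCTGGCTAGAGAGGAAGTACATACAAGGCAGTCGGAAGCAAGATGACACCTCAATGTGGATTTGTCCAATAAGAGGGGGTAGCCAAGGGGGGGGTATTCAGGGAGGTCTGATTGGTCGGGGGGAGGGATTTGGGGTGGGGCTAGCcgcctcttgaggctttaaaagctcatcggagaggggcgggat

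The windows of ZNF585A and ZNF585B share an unbroken run of at most 22 bases, and the window of ZNF667 holds 35 CpG dinucleotides at 75.6% GC. The window of GPR50 holds 6 CpG at 56.8% GC. Those of 2 other gained starts, CCL28 and PRDM12, hold 20 and 19 CpG, against 16, 13 and 18 at the lost starts of ZNF585A, ZNF585B and MCTS2, so gained and lost starts overlap in CpG count.

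Among regions within 1 kb of a protein-coding gene (these were chosen after their values were seen), zinc-finger genes again made up most of the largest losses. MCTS2, a retrogene copy of MCTS1, had 47 and 94 reads in WT and 3 and 2 in KO (-4.76 ± 0.42). ZNF454 had 32 and 41 against 2 and 2, and ZNF585B had 19 and 33 against 1 and 2. Of 40620 tested regions within 1 kb of a protein-coding gene, 1013 (2.49%) lay near a gene whose symbol begins with ZNF. The share was 4.72% (16 of 339) among those lower by over 2-fold, and 6 of the 7 lower by over 8-fold lay there. None of the 209 regions higher by over 2-fold did.

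The 4 largest named losses, near zinc-finger genes, were already present on the first day under BMP4. At day 1 the KO difference was -4.38 at the region named for ZNF680, -4.50 at ZNF585A, -4.36 at ZNF667 and -4.33 at ZNF354C. Each was called, when only 78 regions (0.0549%) were called in all. At none of the 4 was the change from day 1 to day 5 in the KO difference called, and its adjusted p ran from 0.569 to 0.900. DATG against WT at day 5, which uses the same WT libraries, called 4.66% of regions, 3.16% lower and 1.51% higher. There ZNF585A differed by 0.10, ZNF667 by 0.14 and ZNF354C by 0.30, none of them called. The region named for ZNF680 was higher by 0.80 (edgeR adjusted p = 0.0277). KO was lower than DATG in the direct test, which shares the KO libraries and called 0.491% of regions, at all 4, by -6.98, -5.35, -4.22 and -3.79 in the order given. At ZNF454, named from the losses within 1 kb, DATG was lower than WT too (-5.49). KO and DATG were not called apart there (1.36, edgeR adjusted p = 0.798). Of the 20 largest losses within 1 kb of a protein-coding gene, 10 were also called lower in DATG against WT. KO against DATG was called at 11 of the 20, and KO against WT at day 1 was called at 9.

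The other 6 of the 10 named losses were not called at day 1. The region at chr11:57237161-57237361 abuts one end of APLNR, the receptor for the apelin peptides, which marks nascent mesoderm. It had 11.3 and 13.7 CPM in WT and 2.29 and 2.72 in KO at day 5, a difference of -2.33 ± 0.26 (adjusted p = 1.01e-11). LRRC55, which encodes an accessory subunit of a potassium channel, was named by a region also on chromosome 11, with 17.2 and 18.9 CPM in WT and 2.42 and 3.37 in KO. ITPR1, a calcium release channel of the endoplasmic reticulum, had 21.9 and 22.1 CPM against 3.57 and 5.57 at a region 19686 bp from its start. WT and KO libraries did not overlap at any of the 20 named regions, all of which were chosen for their size of difference, nor at 52.1% of all tested regions.

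SERINC3 (-2.35 ± 0.27), CCN4, a WNT-inducible secreted protein (-2.34 ± 0.27), and CDRT4 (-2.30 ± 0.24) completed the named losses. At all 6 the KO difference was more negative at day 5 than at day 1 by the interaction test, by -2.02 to -3.29. That test called 1.33% of all regions in this direction. It shares the day 5 libraries that chose these regions, so its direction here is not independent of the choice. DATG was lower than WT at each of these 6, by -0.78 (CCN4) to -1.40 (ITPR1), and KO was lower than DATG at 5 of them. ITPR1 was the one without a call between the lines (-0.87, adjusted p = 0.0900).

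The named gains were smaller than the losses. ABCG2, a drug efflux transporter, had a region 14219 bp from its start with 2.61 and 1.94 CPM in WT and 9.81 and 8.67 in KO (2.05 ± 0.26; adjusted p = 1.36e-09). ARHGAP45, a GTPase-activating protein, had 3.98 and 3.31 CPM in WT and 16.7 and 12.9 in KO (2.04 ± 0.22). The region of PITX1, a homeobox factor of hindlimb and pituitary, lies 35288 bp from its start, and EPIST is nearer, at 29469 bp. That region had 7.20 and 4.33 CPM in WT and 23.6 and 15.5 in KO (1.80 ± 0.20). Both KO libraries were above both WT libraries, and KO a was above KO b at all the named gains but TMEM161A.

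DHRS3, a retinaldehyde reductase that limits retinoic acid, was higher in KO by 1.80 ± 0.21 at a region 11347 bp from its start. The remaining gains ranged from 1.73 (CDON, a Hedgehog co-receptor, and TMEM161A) to 1.88 (TBC1D14). ARHGAP45 and TMEM161A were the 2 gains already called at day 1 (1.91 and 1.51), and with ABCG2 the 3 at which KO exceeded DATG. At 5 of the 10 the day 5 difference was larger than the day 1 difference by the interaction test, which called 0.766% of all regions that way. The same limit holds, since the day 5 libraries chose these regions. DATG was higher than WT at 7 of the 10.

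**Figure D1:**
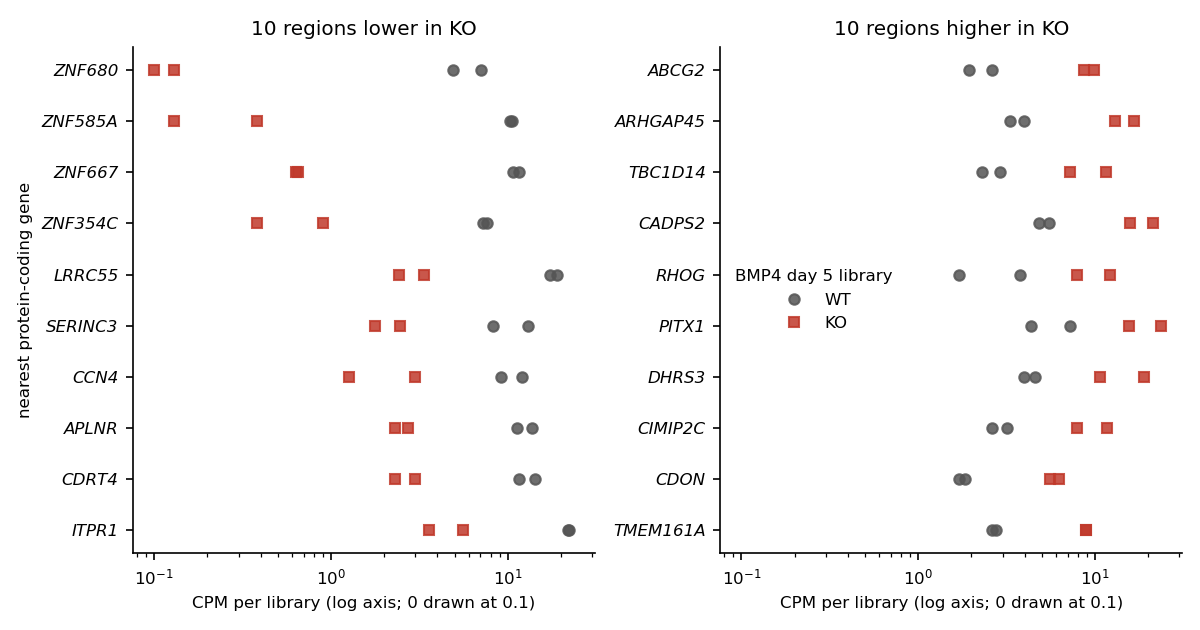
Level of the 20 named regions in each BMP4 day 5 library, in CPM on a log axis, with circles for WT and squares for KO and 2 libraries each. The regions named for zinc-finger genes fall below 1 CPM in KO, while the other losses keep 1.27 CPM or more. No WT and KO libraries overlap.

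Among gains within 1 kb of a gene, also chosen after their values were seen, GPR50, an orphan receptor related to the melatonin receptors, led with 6 and 11 reads in WT and 57 and 60 in KO (2.74 ± 0.32). LIN28A, an RNA-binding pluripotency factor, had 3.07 and 2.51 CPM in WT and 9.69 and 8.16 in KO at a region just past one end (1.69 ± 0.26). CYP26B1, which breaks down retinoic acid, had 6 and 13 reads in WT and 25 and 31 in KO (1.52 ± 0.37). The gain at GPR50 was present at day 1 (2.47) and not called in DATG against WT (0.07). At LIN28A the day 1 difference was not called (-0.33), and DATG was higher than WT at day 5 (1.48).

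Regions that differed lay farther from genes than regions at large. A gene start or end lay within 1 kb of 33.2% of all tested regions, of 9.20% of those higher by over 2-fold and of 7.86% of those lower by over 2-fold. Median distances were 5209, 17873 and 18368 bp. Loss and gain differed in where else the regions were found. Of the regions lower by over 2-fold, 6.84% overlapped a region of the day 0 table and 27% one of the SMADi table, and 72.4% (6347) overlapped neither, against 13.5% of all regions. Of those higher by over 2-fold, 48.9% overlapped a day 0 region and 92.9% a SMADi region, and 4.74% neither. SMADi is the neuroectoderm treatment of the series, and a table lists only regions found in its own samples. Averaged over all 30 BMP4 libraries, the lower regions were also dimmer. Their median log2 CPM was 1.5, against 2.27 over all regions and 1.81 for the higher ones. In the WT day 5 libraries, which entered their choice, they were not dimmer, with medians of 5.52 and 6.27 CPM against 4.75 and 4.91 over all regions.

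**Figure D2:**
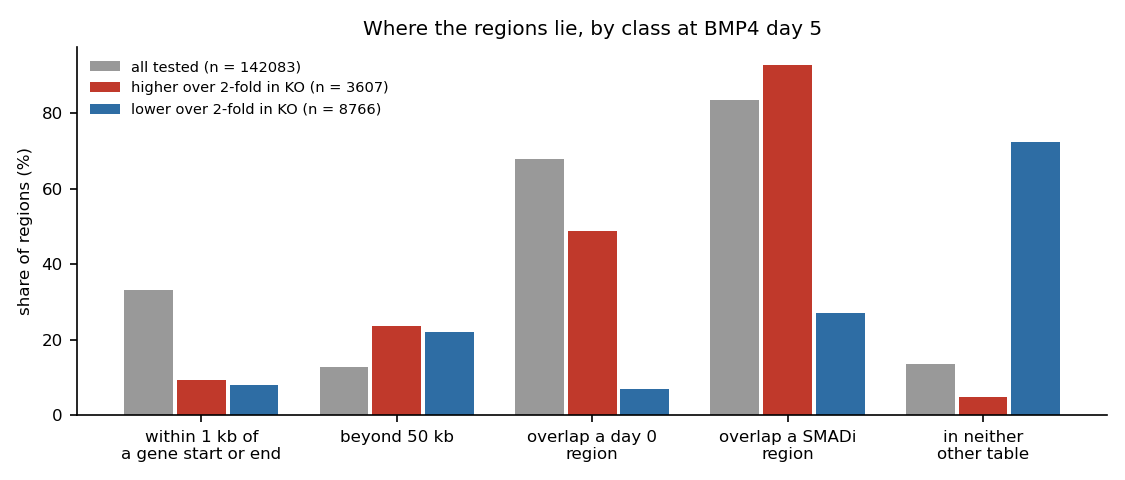
Share of regions (%) in each position class for all 142083 tested regions, the 3607 higher and the 8766 lower by over 2-fold in KO at day 5. Lost regions are mostly absent from the day 0 and SMADi tables (72.4%), while 92.9% of gained regions overlap a SMADi region.

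Lost regions had a higher median level at each later day in WT. The median went from 1.5 and 1.51 CPM at day 1 to 4.02 and 3.58 at day 4 and 5.52 and 6.27 at day 5. In KO it went from 1.33 and 1.43 CPM at day 1 to 2.13 and 2.09 at day 4 and 1.91 and 2.46 at day 5. DATG stood between them at day 5, with 3.68 and 3.23 CPM. The regions were chosen at day 5, so these day 5 values describe the choice and support nothing.

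Libraries that the choice did not use gave the same direction. In KO against WT at day 4, the median difference of the lost regions was -0.88, and 36.8% of them were called lower against 3.74% of all regions. In WT from day 1 to day 4 their median change was 1.31, with 64.9% called higher against 15.4% of all regions. Without WT day 4 library a these shares fell to 12.0% and 48.3%, with 1.03% and 9.47% over all regions, and the medians were -0.76 and 1.17. Over all regions, WT calls from day 1 to day 4 were 41.2% lower under TMM and 56.5% lower under total counts, which moved the median of all regions from -0.04 to -0.15.

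Gained regions had no such rise in WT. Their median level in WT went from 3 and 2.8 CPM at day 1 to 2.15 and 2.05 at day 5, and in KO it was 3.79 and 3.72 CPM at day 4 and 5.61 and 4.79 at day 5. The day 5 values again describe the choice and support nothing. In KO against WT at day 4 their median difference was 0.58, and 15.6% were called higher against 1.14% of all regions. Without WT day 4 library a the share was 3.55% against 0.17%. From day 1 to day 4 in WT, 15.1% of them were called lower against 10.8% of all regions, with a median change of -0.17.

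**Figure D3:**
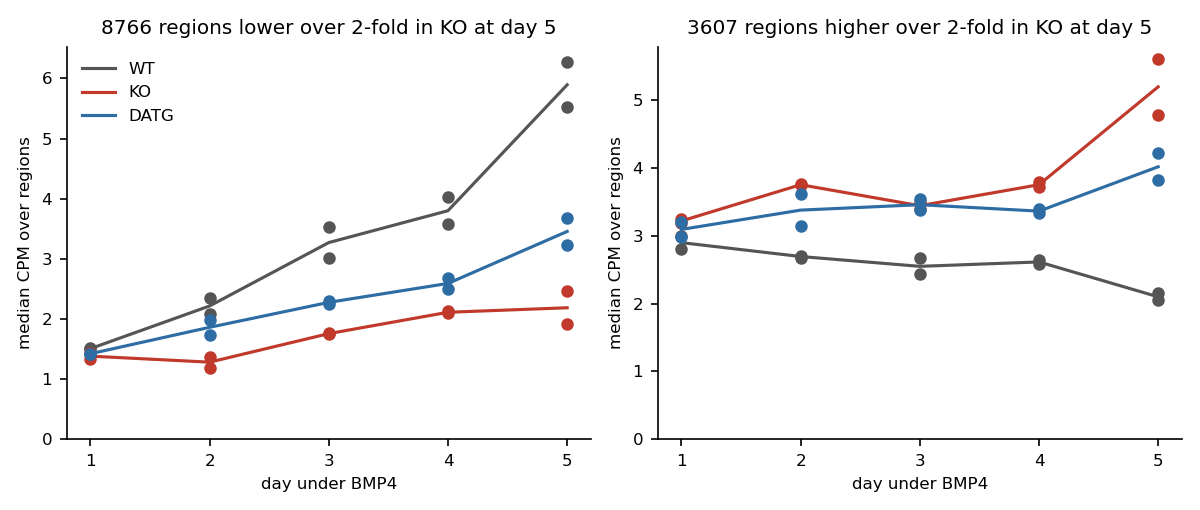
Median CPM over the regions lower (left, 8766) and higher (right, 3607) by over 2-fold in KO at day 5, against day under BMP4, with 1 point per library and lines through the mean of 2 libraries. WT rises to 5.52 and 6.27 CPM in the lost regions while KO stays at 2.46 CPM or less, and DATG lies between WT and KO at day 5 in both sets. Both sets were chosen from the day 5 WT and KO libraries, so the day 5 gap, and the place of DATG within it, support nothing.

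Calls in KO against WT numbered 78 at day 1, 3117 (2.19%) at day 2, 8378 (5.9%) at day 3, 6927 (4.88%) at day 4 and 22517 at day 5. The KO difference at day 5 departed from that at day 1 in 2974 regions (2.09%), 1886 of them (1.33%) towards loss and 1088 (0.766%) towards gain under TMM. Total counts gave 1425 towards loss and 1650 towards gain, so this split turned with scaling. Against day 4, 2 regions (0.00141%) departed by edgeR's test, with 10597 at an unadjusted p under 0.05. KO and DATG at day 5 differed in 698 regions (0.491%), 505 of them lower (0.355%) and 193 higher (0.136%) in KO. That direction turned without KO a, where 68 were lower and 195 higher, and without DATG a, where 104 were lower and 195 higher.

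Several genes held many differing regions. Losses over 2-fold linked to 2208 protein-coding genes and gains to 1149, counting regions whose nearest gene start or end lay within 50 kb. Over all tested regions, 6.17% were lower and 2.54% higher by over 2-fold. Those named for their number of regions were picked for the most such regions, which favours genes with many linked regions. KRT8, a keratin of simple epithelia, held 10 losses among its 20 linked regions, with a median of -1.61, and its partner keratin gene KRT18 lies next to it. The 5 regions just outside its lower-coordinate end were lower in KO by 1.44 to 2.09 on the log2 scale. One further region, 28.12 kb inward, had 22.8 and 26.8 CPM in WT and 6.75 and 7.90 in KO. A single region of KRT8 went the other way, with 11.6 and 13.8 CPM in WT and 18.1 and 17.3 in KO (0.47 ± 0.16).

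HAND1, a basic helix-loop-helix factor of lateral plate, heart and extraembryonic tissue, held 8 losses over 2-fold among 38 linked regions. Of these, 5 lay 42.38 to 51.45 kb from the lower-coordinate end of the gene, around a region at 46.25 kb with 22.4 and 19.5 CPM in WT and 22.6 and 19.9 in KO. The largest loss, at 43.72 kb, had 10.4 and 14.4 CPM in WT and 2.17 and 4.01 in KO (-2.02 ± 0.25). Over the gene body no region was called, and the region at 5.16 kb was higher in KO (0.54 ± 0.20). APLNR had 4 of its 5 regions lower by over 2-fold, the brightest with 24.2 and 27.7 CPM in WT and 7.01 and 8.54 in KO (-1.75 ± 0.18).

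BCAR3, an adaptor of integrin signalling, held 10 losses among 42 regions, SEPTIN9, a cytoskeletal GTPase, 8 among 43, WBP1L 7 among 17, IER5, an immediate early gene, 7 among 24, and CDRT4 6 among 8. NRP2, a semaphorin and VEGF co-receptor, held 7 losses and 2 gains over 2-fold among 29 regions. The most gains fell to NR2E1 (TLX, a nuclear receptor of neural stem cells), with 5 among 23 regions, and HMX1, a homeobox factor of eye and ear, with 5 among 44. ARHGAP45, RSPO1 (a WNT agonist), CAMKMT, RPH3A, A4GALT and ARHGEF10L held 4 each, the last 2 with 1 and 3 losses over 2-fold beside them.

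At NR2E1 the gains lay on both sides of its lower-coordinate end. The region at -8.57 kb from that end had 1.38 and 1.71 CPM in WT and 4.84 and 3.75 in KO (1.45 ± 0.35). The region at -1.06 kb had 3.37 and 3.42 CPM in WT and 7.90 and 7.77 in KO (1.2 ± 0.24). No region linked to NR2E1 was called lower.

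**Figure D4:**
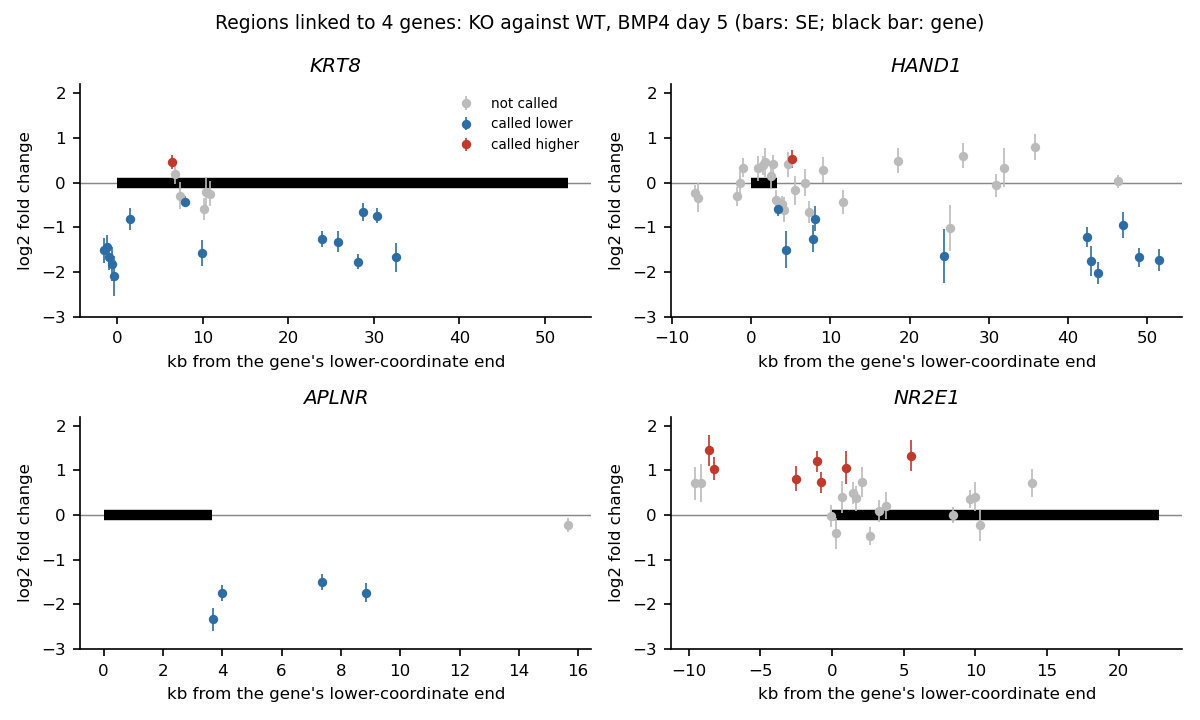
Difference KO minus WT (log2, bars SE) of each region linked to KRT8, HAND1, APLNR and NR2E1, against distance in kb from the lower-coordinate end of the gene, with the gene as a black bar at 0. Losses cluster outside KRT8 and 42.38 to 51.45 kb from HAND1, cover 4 of 5 regions of APLNR, and give way to gains around NR2E1.

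Counts were then summed over the regions linked to each gene, which gives 1 value per gene. Of 30098 genes, 6177 (20.5%) were called, 3348 lower (11.1%) and 2829 higher (9.40%). DESeq2 called 3441, and 2888 were called without WT b and 3571 without KO a. WT and KO did not overlap at the 56 lower and 77 higher genes named below or called in a list, which were picked as called, nor at 55.5% of all genes.

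APLNR had the largest loss among protein-coding genes at or above the median level, with 99.9 and 111 gene-linked CPM in WT and 42.9 and 48.2 in KO (-1.22 ± 0.11; edgeR adjusted p = 1.70e-11). Its level in WT climbed from 37.5 and 42.6 CPM at day 1 to 110 and 91.3 at day 3, while KO held 49.4 and 45.8 at day 3. DATG had 75.4 and 56.4 CPM at day 5, and KO was lower than DATG (-0.57, adjusted p = 0.00771). At day 1 KO had 33.6 and 35.4 CPM.

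IL6, an inflammatory cytokine, had 74.1 and 81.7 CPM in WT and 34.5 and 44.3 in KO (-0.99 ± 0.10), from 7 called losses among 8 regions. The strongest of them had 11.5 and 12.9 CPM in WT and 1.66 and 2.98 in KO. The other named losses were SLC12A3, a sodium chloride transporter (-0.96 ± 0.12), GIP, an incretin hormone (-0.93 ± 0.11), SLC25A45 (-0.89 ± 0.10), LRRN4 (-0.88 ± 0.11), ALPK2, a kinase of cardiac development (-0.87 ± 0.11), and FAM89A (-0.86 ± 0.10). KO was also lower than DATG at IL6, GIP and FAM89A, in a test that called 0.837% of genes. The KO difference had changed since day 1 in 6.32% of genes and since day 4 in 0.0233%.

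CAMKMT, a calmodulin methyltransferase, had the largest gain, with 49.0 and 45.1 CPM in WT and 105 and 84.7 in KO (1.02 ± 0.10). Its called regions lie near and past the higher-coordinate end of that gene. In KO the level went from 43.9 and 52.9 CPM at day 1 to 73.9 and 75.7 at day 4, while WT stayed between 43.3 and 56.9 throughout. NEUROG3, a proneural factor, had 24.2 and 24.8 CPM in WT and 49.3 and 40.9 in KO (0.88 ± 0.15). SLIT1, an axon guidance ligand (0.83 ± 0.11), SLC17A6, a vesicular glutamate transporter (0.76 ± 0.11), and CACNA1A, a neuronal calcium channel (0.72 ± 0.12), were also higher. PLSCR2 (0.82 ± 0.12), C6orf141 (0.79 ± 0.12) and C1QB, a complement component (0.74 ± 0.13), completed the named gains.

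The 20 lists of marker and pathway genes gave the wider view, as counts of called members beside the 11.1% lower and 9.40% higher of all genes. Calls over all genes also fell in the alternative runs quoted below, from 2829 higher and 3348 lower. DESeq2 called 1403 higher and 2038 lower, and regions within 1 kb alone gave 828 and 880. They fell with a day 5 library left out as well, so a fall in a list does not by itself set that list apart. Accessibility near a gene is not its expression, which was not measured here.

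Genes of neuroectoderm were higher or not called. Of 33 measured, 17 were higher and 0 lower in KO, with a median of 0.27 against -0.002 over all genes. NKX2-1, a ventral forebrain factor, had 26.6 and 25.2 CPM in WT and 40.1 and 43.5 in KO (0.69 ± 0.11). ZIC1 was higher in KO by 0.64, FEZF2 by 0.59 and HESX1 by 0.54, each a forebrain or neural plate factor. PAX6, named after its values were seen, had 173 and 163 CPM at day 1 and 128 and 144 at day 5 in WT, and 175 and 174 and then 188 and 186 in KO (0.46 ± 0.08 at day 5). DESeq2 called 14 higher and 0 lower. Calls were 12 higher and 0 lower without WT b, 16 and 0 without KO a, and 16 and 1 without KO b, where the median was 0.13.

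Neural crest and placode genes were mostly higher too, with 9 of 17 higher and 1 lower. PAX7 had 142 and 153 CPM in WT and 211 and 207 in KO (0.50 ± 0.06). PAX3 was higher in KO by 0.45 and FOXD3 by 0.41. ETS1 alone was lower, with 44.9 and 48.3 CPM against 32.6 and 32.8 (-0.52 ± 0.10). With only regions within 1 kb of the gene, ETS1 was at 0.32, in the other direction.

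Pluripotency genes were higher in 12 of 29 and lower in 0, with a median of 0.22. ESRG, a lncRNA of human pluripotent cells, had 14.3 and 13.2 CPM in WT and 22.5 and 19.7 in KO (0.63 ± 0.16). USP44 was higher in KO than in WT by 0.48, UTF1 by 0.47 and PRDM14 by 0.44. SOX2, which belongs to the neural list too, had 140 and 132 CPM in WT and 180 and 175 in KO (0.39 ± 0.08). The core factors POU5F1 (0.22 ± 0.11, adjusted p = 0.159) and NANOG (0.28 ± 0.14, adjusted p = 0.178) were not called. Calls fell to 6 without WT b, to 8 without KO a or with DESeq2, and to 4 with only regions within 1 kb.

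Primitive streak and nascent mesoderm genes split, with 6 of 23 higher and 5 lower and a median of -0.01. Beside APLNR, MESP2 (-0.81 ± 0.19), PDGFRA (-0.33 ± 0.07), FGF8 and MESP1 were lower. EOMES had 95.1 and 98.0 CPM in WT and 124 and 121 in KO (0.34 ± 0.07), and GSC, WNT8A, WNT3A and DLL1 were among the higher ones too. TBXT, the defining streak factor, had 28.4 and 33.7 CPM in WT and 27.7 and 28.2 in KO and was not called (-0.17 ± 0.12, adjusted p = 0.359). Without WT b, 3 were higher and 1 was lower, and PDGFRA and MESP1 were at 0.03 and 0.04 within 1 kb of the gene. The summed level of the list overlapped between the groups, at 1511.3 and 1612.1 CPM in WT and 1517.8 and 1525.0 in KO.

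Of lateral plate and cardiac genes, 5 of 22 were lower and 1 higher. MYL7, an atrial myosin light chain, had 11.4 and 14.1 CPM in WT and 3.07 and 6.44 in KO (-1.43 ± 0.29), from a single linked region. ACTC1, cardiac actin, had 34.1 and 42.1 CPM against 19.6 and 26.8 (-0.73 ± 0.12), and MYL4 was lower by 0.51. HAND1 had 265 and 298 CPM in WT and 222 and 233 in KO (-0.31 ± 0.06). FOXF1 was lower in KO by 0.22, and WT1 was higher by 0.20. GATA6 was not called (-0.09 ± 0.09). Among endothelial and blood genes, TEK (-0.57) and ETV2 (-0.23) were lower and PECAM1 (0.44), TAL1 (0.39) and ERG (0.36) higher, of 15 measured. The share lower, 13.3%, was near the 11.1% of all genes. Neither TEK nor ETV2 was called by edgeR without WT b (adjusted p = 0.0656 and 0.481) or without KO a (0.152 and 0.148), nor by DESeq2. The 3 gains fell to PECAM1 alone without WT b, and to PECAM1 and TAL1 with DESeq2.

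Amnion and trophoblast genes were lower in 8 of 29 (27.6%) and higher in 3 (10.3%, near the 9.40% of all genes), with a median of -0.06. VTCN1, an immune checkpoint ligand of amnion and trophoblast, had 13.1 and 14.1 CPM in WT and 6.15 and 6.29 in KO (-1.13 ± 0.22). KRT8 had 199 and 233 CPM against 130 and 136 (-0.71 ± 0.07), and KRT19 (-0.64 ± 0.07) and KRT18 (-0.62 ± 0.06) stood with it. BAMBI, HAND1 and MSX2 were lower as well, and KRT7, TFAP2A and DLX5 were higher. Without WT b, and likewise without KO a, TFAP2A was the 1 higher member still called, and within 1 kb 4 members were lower and 2 higher. The epithelial list shares the 3 keratins that were lower in KO, and its 5 gains included GRHL2 (0.46) and GRHL3 (0.44), factors of surface epithelium. Calls of higher members in that list dropped from 5 to 1 without WT b or without KO a.

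Among signal targets, 4 of 22 BMP-SMAD targets were lower (BAMBI, ID2, MSX2 and SMAD7, by -0.20 to -0.30) and DLX5 was higher. Calls in that list were 1 lower and 0 higher without WT b, and the same counts without KO a. Nodal and Activin targets split 3 to 3 of 15, WNT targets held 1 gain (LEF1, 0.30) and 1 loss (LGR5, -0.49) of 18, and 2 of 15 FGF-ERK feedback genes were lower (DUSP6, -0.30, and DUSP5, -0.26). The FGF-ERK share lower, 13.3%, was near the 11.1% of all genes, and the WNT shares of 5.56% lay below those of all genes. Immediate early and AP-1 genes were lower in 4 of 15 (FOSL2, ATF3, FOS and IER2, by -0.18 to -0.37) and p53 targets in 3 of 17. Without WT b, no member of the FGF-ERK and p53 lists was called, and 2 of the AP-1 list were. In the apelin system only APLNR of 3 was called.

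Endoderm genes were lower in 3 of 16 (KRT18, PRDM1 and AFP) and higher in 2 (FOXA1 and FOXA2). Mesenchymal transition genes were lower in 2 of 17 (ACTA2, -0.90, and CDH11, -0.25), and neither was called without WT b, without KO a, without WT a or by DESeq2. The value of ACTA2 came from a single linked region. HOX and CDX genes were higher in 4 of 40 and lower in 1 (HOXB6, -0.55), and DESeq2 called 1 in each direction. The share of mesenchymal transition genes lower, 11.8%, was near the 11.1% of all genes. That of HOX and CDX genes higher, 10.0%, was near the 9.40% of all genes. Of 19 imprinted genes, MEG8 was lower, with 3.73 and 5.13 CPM in WT and 0.838 and 1.72 in KO (-1.81 ± 0.38), from a single linked region. MEG3 in the same domain was higher (0.78 ± 0.13). PLAGL1 and GNAS were higher as well. Ribosomal protein genes, kept as a control, had 2 of 39 lower and 1 higher, with a median of -0.08.

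With only regions within 1 kb of a gene, calls were fewer in most lists, as they were over all genes (828 higher and 880 lower). Neuroectoderm then had 13 higher and 0 lower, neural crest and placode 4 and 0, primitive streak 2 and 3, and lateral plate and cardiac genes 1 and 3. The endothelial, endoderm and imprinted lists had 1 higher and 0 lower each. The BMP-SMAD, Nodal and epithelial lists had 1 higher and 1 lower each. WNT targets had 2 in each direction.

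**Figure D5:**
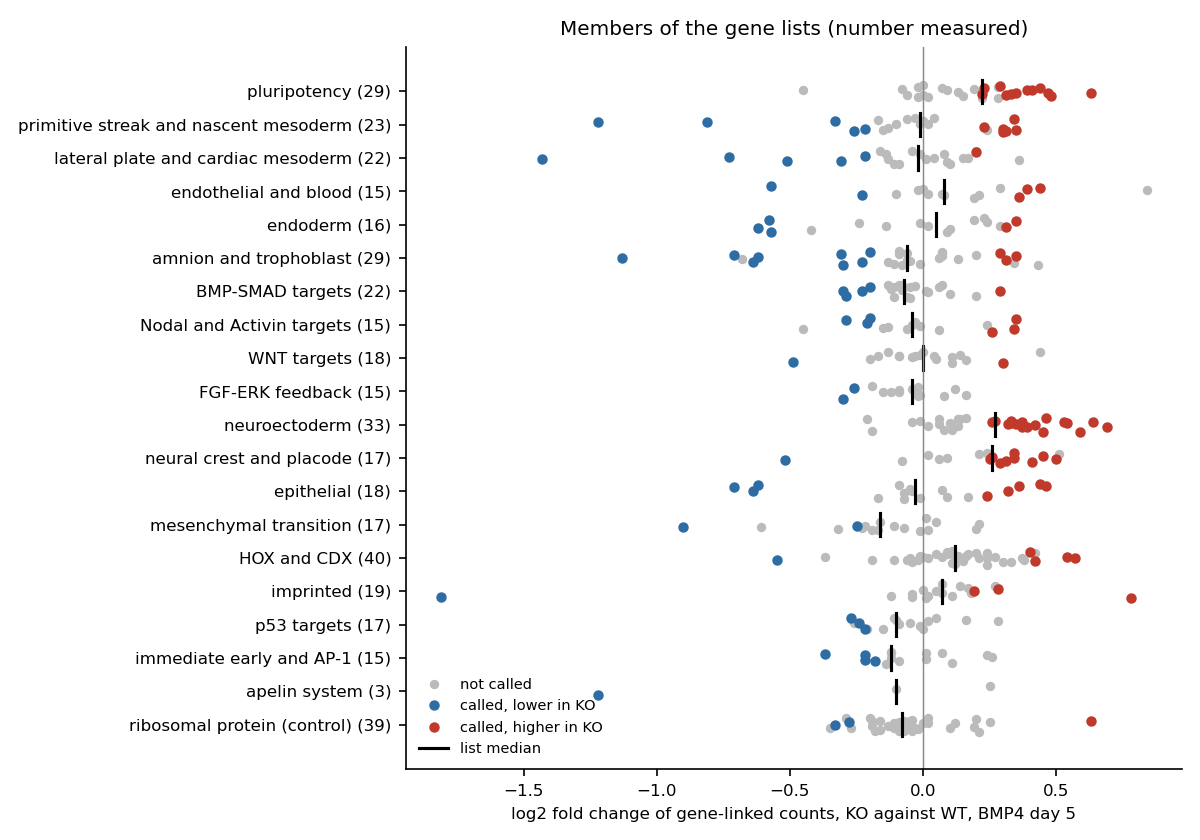
Difference KO minus WT (log2) of gene-linked counts at BMP4 day 5 for each measured member of the 20 lists, with a bar at the list median, blue for called lower and red for called higher. Neuroectoderm (17 of 33) and pluripotency (12 of 29) hold gains and no losses, while the largest losses lie with APLNR, MYL7, VTCN1 and MEG8. MYL7 and MEG8 have 1 linked region each.

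Motifs were counted in 14455 promoter windows of 300 bases (250 before to 50 after the start, RefSeq GRCh38.p14) that overlap a tested region by at least 100 bases, on both strands. Of these, 306 held a region called higher and 816 one called lower. The AP-1 motif TGANTCA was in 14.7% of windows with a loss, 4.25% with a gain and 4.53% of all. The GATA motif AGATAA was in 9.93%, 5.56% and 4.48%. The SOX motif ACAATG was in 6.37% of windows with a loss, 11.8% with a gain and 5.59% of all, and the octamer ATGCAAAT in 1.59%, 3.59% and 1.39%. The ETS motif CCGGAAG was in 12.3% of windows with a loss, 5.88% with a gain and 15.7% of all. Windows with a gain held a median of 18 CpG against 24 with a loss and 26 in all. These windows cover few of the differing regions, most of which lie far from a start.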

How the data were processed

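ATAC-seq libraries of H1 cells were analysed from the tables of read counts per region that the authors deposited for the day 0, BMP4 and SMADi samples. Per the submitters' processing notes, MACS2 and GRCh38 were used, and no settings, aligner or filters are stated there (not given in the sources used here). The day 0 and SMADi tables served only for overlap of regions.

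All 30 BMP4 libraries were fitted together (1 mean per genotype and day) with edgeR 4.0.16 in R 4.3.3, using TMM scaling, its default filter on low counts and quasi-likelihood F tests, with Benjamini-Hochberg adjustment over all regions or genes. DESeq2 1.42.0 was the alternative. SE is the log2 difference divided by the root of F. Regions were linked to the nearest RefSeq GRCh38.p14 gene whose start, or either end where no start was given, lay within 50 kb, and counts were summed per gene (38151 genes, of which 30098 were tested). Total counts per gene-linked library ran from 3664649 to 12666576.

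On simulated data for the day 5 comparison (20000 regions, 100 changed at each size), true log2 differences of 1 were called in 59% of cases and those of 0.5 in 9%, with 4 false calls. Only 200 regions were changed there, a far smaller share than the 15.8% called in the data, and 1 spread was used for all regions. With fewer changes the adjusted cut-off is stricter, so these rates do not carry over to the real comparison.

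Members and lists were chosen with earlier results of these data known. For gene-linked counts the 8 protein-coding genes with the largest difference in each direction at or above the median level were named, and so were the 8 with most regions past 2-fold. Of lists, all called members up to 8 calls or otherwise the 4 largest in each direction were named, together with POU5F1, NANOG, TBXT, APLNR, HAND1, GATA6, KRT18, SOX2 and ZNF585A. Genes named outside this rule (PAX6, MESP1, regions within 1 kb) were chosen after their values were seen.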

Additional observations from a re-analysis of the deposited data

Results flagged for a closer look

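The KO difference itself changed between days by edgeR's interaction test in 2974 regions and 1903 gene-linked counts from day 1 to day 5, and in 2 regions and 7 gene-linked counts from day 4 to day 5. The day 5 libraries that chose the named genes also enter this test, so the direction at those genes is not independent of the choice. The change from day 1 was called at 26 of the 56 lower and 38 of the 77 higher genes named or called in a list. Values are given for those with the largest day 5 differences and for those named whatever their call.

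Among these, of the gene-linked counts that became more negative from day 1 to day 5, APLNR changed by -1.0, IL6 by -0.93, GIP by -0.86, ALPK2 by -0.82 and FAM89A by -0.79. SLC25A45 changed by -0.72, SLC12A3 by -0.66, LRRN4 by -0.63, KRT18 by -0.58 and HAND1 by -0.29. GIP alone of these also changed from day 4 to day 5, by -0.85. Those of these that became more positive from day 1 were CAMKMT by 1.01, SLC17A6 by 0.84, C6orf141 by 0.77, C1QB by 0.76, NEUROG3 by 0.75, CACNA1A by 0.72 and SLIT1 by 0.62.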

How the results depend on the processing

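All 20 named regions kept their direction and call under each alternative run, among them DESeq2, total counts, loess, equal depth and each day 5 library left out. DESeq2 called 10241 regions and 3441 gene-linked counts at day 5, and regions within 1 kb alone gave 1708 gene-linked calls. Within 1 kb the direction turned at BAMBI (0.01), ETS1 (0.32), FGF2 (-0.02), HOXC6 (-0.01), MESP1 (0.04), PDGFRA (0.03) and PLAGL1 (-0.11), and the cause was not tested. Of the 113 gene results that regions within 1 kb could give, 57 lost their call there. Of 125 gene results, 55 lost their call without WT b, 43 without KO a and 31 with DESeq2.

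With 1 library left out, where the lone library is assumed to vary like the other groups, day 5 calls ranged from 11553 (without WT b) to 19372 regions and from 2888 to 5332 genes. The change from day 1 ranged from 500 to 4186 regions and from 615 to 2082 genes, and the change from day 4 from 0 to 45 regions and from 1 to 59 genes. KO against DATG ranged from 263 to 924 regions and from 188 to 307 genes, KO against WT at day 4 from 1710 to 4273 regions, and WT day 4 against day 1 from 20419 to 28353 regions.

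Deviations between a and b had a correlation of 0.063 between KO and WT at day 5, and of -0.132 between KO and DATG. Counting noise pulls such correlations towards 0, so they cannot exclude that the letters pair the libraries. With the replicate block 23023 regions and 6344 genes were called. The block changed no call among the named regions and genes. Small changes were seldom recovered on simulated data at the depth of these libraries, where only 200 of 20000 regions were changed. Thinning to equal depth left 20166 regions called. Other depths were not simulated.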
